A study of Mus musculus with 24 samples.

Results

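Microglia and the other macrophages of the embryonic mouse brain were followed through 10 genes, a list of names that uses no measured value but was drawn up with earlier results of these data known. They were *Csf1r*, *Cx3cr1*, *P2ry12*, *Trem2*, *C1qa*, *C1qb*, *C1qc*, *Mrc1*, *Aif1* and *Tmem119*, 10 of the 54446 genes counted in each library. The samples were brains of female and male mouse embryos at E14.5 from crosses of heterozygous *Tfap2b* mice, in which a PGK-neo cassette interrupts an exon of *Tfap2b*, the gene of transcription factor AP-2 beta. The strain background was not given for these embryos. Tfap2b-/- embryos, called mutants here, were compared with Tfap2b+/+ littermates, called controls. Each of the 12 embryos gave 1 library of the secondary prosencephalon (SP, the part that forms telencephalon and hypothalamus) and 1 of the diencephalon, midbrain and hindbrain (DMH), with 3 embryos for each sex and genotype. The allele is carried in the germline, so it is present in every cell of a mutant, microglia included.

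Microglia are the resident macrophages of the brain. They descend from yolk sac progenitors that enter the neural tube early in embryonic life, before most neurons are born, and they depend on signalling through the CSF1 receptor. Border-associated macrophages, their close relatives, lie in the meninges, around vessels and in the choroid plexus, where they keep genes such as the mannose receptor *Mrc1*. Homeostatic genes such as *P2ry12* and *Tmem119* increase as microglia mature, and the C1q genes encode the chains of the molecule that opens the classical complement pathway and tags synapses later in life.

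The fragments counted on genes ranged from 24.7 M to 66.8 M per library (median 32.1 M, where M is 10 to the power of 6). *Tfap2b* checked the labels in DMH, where it lay between 281 and 435 CPM (counts per M fragments counted, with the sizes of the 24 libraries scaled by the TMM method) in the 6 controls and between 50.4 and 56.6 CPM in the 6 mutants. In SP it was low in both genotypes, between 2.75 and 4.72 CPM. The 2 libraries of female control 2 held Y-linked transcripts above 10 CPM and were kept under their label. This embryo therefore counts as a female control in every female comparison and in the sex term. The effect of its label was not tested. Caudal *Hox* genes, which mark the posterior hindbrain and spinal cord, summed to between 338 and 520 CPM in 8 DMH libraries, to 11.5 CPM in male mutant 2, and to between 0.0378 and 0.450 CPM in female control 1 and female mutants 1 and 2.

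Further libraries stood apart in genes of the tissue around the brain. Female DMH mutant 3 held 643 CPM of skeletal muscle genes and 3286 CPM of meningeal genes, against at most 8.27 and 1241 CPM in the other DMH libraries. The study left this embryo out, and it was left out of the tests here, which leaves 5 mutants in each region. Male SP mutant 3 held 155 CPM of meningeal genes and 43.4 CPM of choroid plexus genes, where the other SP libraries held at least 492 and 213 CPM. Male SP mutant 1 differed along base composition: with genes split into 5 bins by GC content, the median log2 ratio to the other libraries in the bin of highest GC minus that in the bin of lowest GC was -0.81, while the other SP libraries lay between -0.13 and 0.16. Values for the members are therefore given with and without these libraries where a result rests on them.

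All 10 members were detected in all 24 libraries, although not on equal numbers of reads. *Mrc1* (161 to 1857 counts) and *Csf1r* (325 to 1762 counts) rested on the most reads, *Aif1* (16 to 64 counts) and *Trem2* (26 to 94 counts) on the fewest. A floor of 3 counts corresponds to 0.0455 to 0.123 CPM depending on the library, for counting error only, since PCR copies are not independent molecules. Genes of monocytes, neutrophils, mast cells and lymphoid cells were low. The 12 genes of monocytes and neutrophils summed to between 0.592 and 3.71 CPM in SP and between 1.25 and 3.46 CPM in DMH, and *Ccr2*, the chemokine receptor of blood monocytes, stayed between 0.119 and 0.655 CPM over the 22 libraries tested. Of the 10 mast cell and lymphoid genes only *Kit*, which neural cells express as well, exceeded the filter on low counts. The macrophage genes *Adgre1* (F4/80, 2.404 to 7.41 CPM over the 22 libraries), *Laptm5* (11.2 to 23.1 CPM) and *Spi1* (1.39 to 2.42 CPM) were above 0 in every library.

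Promoters are shown for a member of each kind: *Mrc1* for border macrophages, *C1qb* for complement and *P2ry12* for homeostatic microglia. They are the 250 bases before the RefSeq transcription start on GRCm38.p6, read 5′ to 3′ on the strand of the gene, and capitals mark GAGGAA or its reverse complement TTCCTC, a core that PU.1, the lineage factor of macrophages, can bind.

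*Mrc1*, chr2:14229164-14229413, plus strand: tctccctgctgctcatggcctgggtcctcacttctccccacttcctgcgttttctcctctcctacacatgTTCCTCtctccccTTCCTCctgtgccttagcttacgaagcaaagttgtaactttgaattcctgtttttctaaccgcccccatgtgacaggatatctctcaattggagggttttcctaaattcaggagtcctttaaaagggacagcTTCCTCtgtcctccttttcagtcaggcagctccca

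*C1qb*, chr4:136886201-136886450, minus strand: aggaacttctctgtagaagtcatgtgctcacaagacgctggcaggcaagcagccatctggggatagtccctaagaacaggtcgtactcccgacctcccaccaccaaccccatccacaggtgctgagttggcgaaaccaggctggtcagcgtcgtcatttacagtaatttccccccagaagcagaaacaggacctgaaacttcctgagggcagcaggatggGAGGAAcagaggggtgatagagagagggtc

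*P2ry12*, chr3:59262986-59263235, minus strand: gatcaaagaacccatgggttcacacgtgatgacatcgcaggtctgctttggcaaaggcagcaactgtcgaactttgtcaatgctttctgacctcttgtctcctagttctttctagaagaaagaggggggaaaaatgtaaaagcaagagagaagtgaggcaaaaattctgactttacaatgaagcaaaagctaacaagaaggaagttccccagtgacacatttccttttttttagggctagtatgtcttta

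The *Mrc1* window held the letters 3 times, the *C1qb* window 1 time at position -30 from the start, and the *P2ry12* window did not hold them, although the RefSeq start of *P2ry12* lies upstream of the start in the annotation used for its counts. Of the 7 members whose RefSeq promoters were read, 5 held the letters on at least 1 strand. Of all 32851 promoter windows of this length, 23.3% did. *C1qa*, *Tmem119* and *Csf1r* were not read. Chromosome 18, which holds *Csf1r*, was left out of the members' count but not of all windows. This is a match of letters, not a bound site. The C1q genes lie side by side on the minus strand of chromosome 4 in GENCODE M21 coordinates, *C1qb* from 136880129 to 136886187, *C1qc* from 136889804 to 136893065 and *C1qa* from 136895917 to 136898803, so a single small locus carries 3 of the 10 members.

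Levels were compared between genes per kilobase of exon. The complement genes *C1qb* and *C1qa* led in both regions. In DMH, *C1qb* reached 8.02 ± 0.75 CPM per kilobase (SD, n = 11 libraries) and *C1qa* 6.89 ± 0.86, and in SP 6.14 ± 0.82 and 5.26 ± 0.83, with overlapping ranges in both. Next in DMH came *Csf1r* (4.85 ± 0.37), *C1qc* (4.83 ± 0.65) and *Mrc1* (4.29 ± 0.56), whose ranges overlapped, then *Cx3cr1* (3.27 ± 0.25) and *P2ry12* (2.44 ± 0.28), each overlapping its neighbour. *Tmem119* followed at 1.41 ± 0.26, *Aif1* at 0.646 ± 0.159 and *Trem2* was lowest at 0.275 ± 0.061, and from *Tmem119* down the ranges of neighbours were separate. In SP *C1qc* (3.55 ± 0.65), *Csf1r* (3.06 ± 0.47), *Cx3cr1* (2.89 ± 0.30) and *Mrc1* (2.81 ± 0.74) formed the middle group in that order and could not be ranked by their spread. *Trem2* has 4946 bases of exon in the gene model, and the model of *Cx3cr1* spans 168264 bases and overlaps other genes on its strand, so these levels depend on the annotation. *Csf1r* overlaps *Hmgxb3* on the opposite strand. The counts used strand, and the opposite strand held 27.8% of all counts at *Csf1r* and at most 4.22% at the other members.

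**Figure D1:**
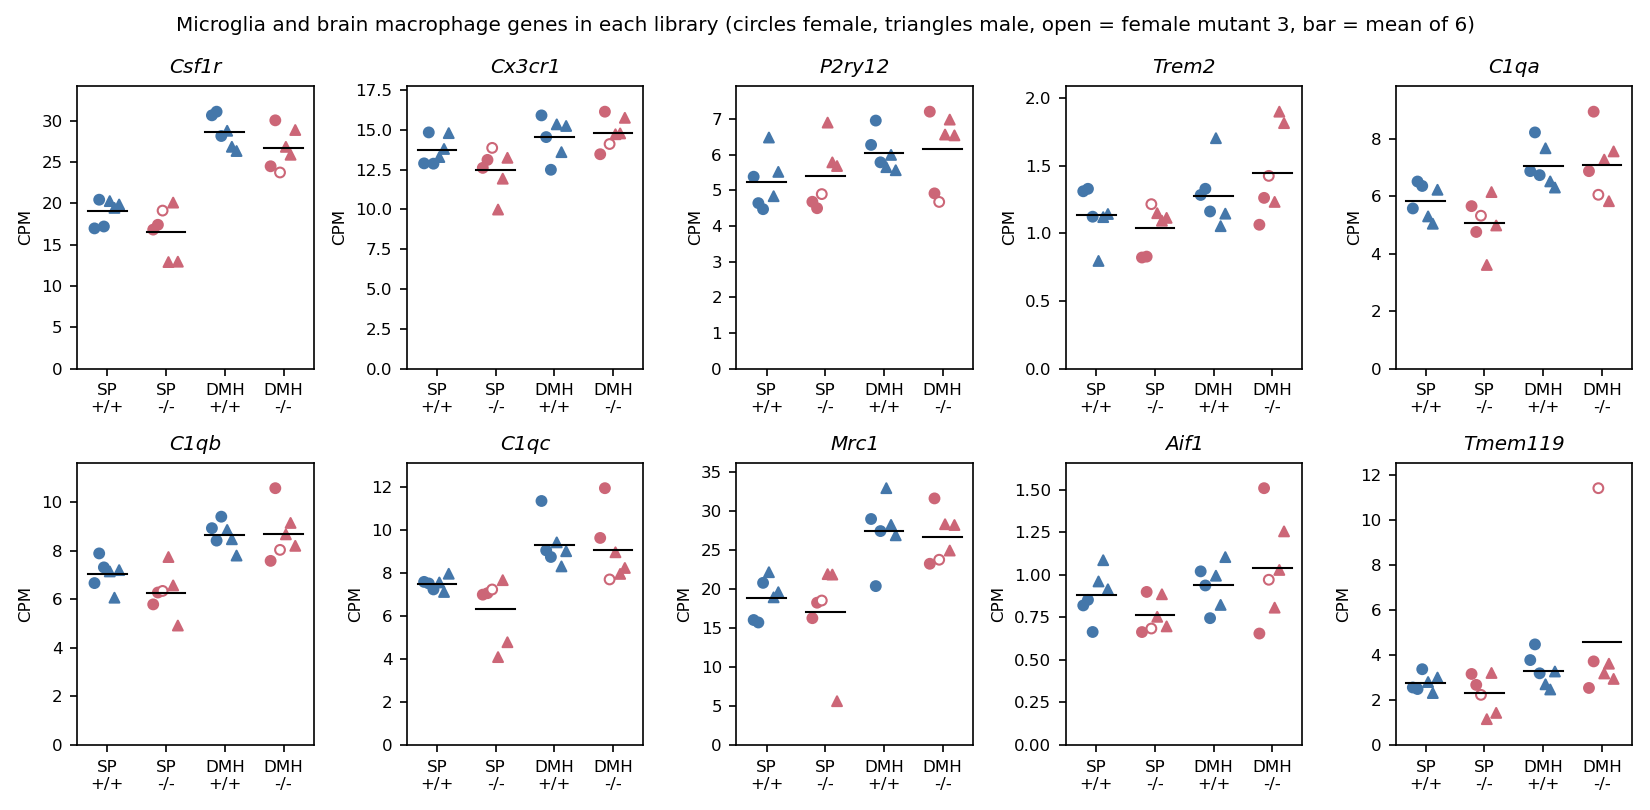
Level of each member in CPM on a linear axis starting at 0, for SP and DMH of controls (+/+) and mutants (-/-); each point is a library, circles are female, triangles male, the open circle is female mutant 3 and the bar is the mean of the 6 libraries. *Csf1r* in DMH lies above SP in every embryo, the lowest SP value of *Mrc1* is 5.61 CPM in male mutant 3, and the open point of *Tmem119* in DMH is 11.4 CPM.

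The first comparison asked whether the members differed between the 2 regions of the same brain. All 10 had a higher mean in DMH than in SP. *Csf1r*, the receptor on which microglia depend for survival, and *Mrc1*, the mannose receptor of border macrophages, were higher in DMH by 1.58-fold and 1.55-fold and passed the thresholds of the study, which are a false discovery rate (FDR) below 0.2 together with a log2 fold change beyond 0.5 in either direction. The other 8 were higher by 1.12-fold (*Cx3cr1*) to 1.35-fold (*C1qc*), below the fold threshold. Thus 2 of 10 members were called, against 21.8% of all 17465 genes tested that were called higher in DMH and 36.6% called in either direction. By direction, 10 of 10 log2 fold changes were above 0, with a median of 0.36, where 50.8% of all genes were above 0 and their median was 0.01. In bulk tissue, more macrophages and more RNA per macrophage cannot be told apart.

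*Csf1r* gave the clearest difference. In SP its 11 libraries ranged from 12.9 to 20.4 CPM (median 17.4), and in DMH from 24.5 to 31.1 CPM (median 28.1). The ranges did not overlap. Of all genes tested, 14.6% had every DMH library above every SP library. DMH exceeded SP in 11 of 11 embryos, by 1.29-fold in male mutant 2 to 2.23-fold in male mutant 3. The log2 fold change was 0.66 ± 0.07 (SE), with an edgeR quasi-likelihood adjusted p of 2.7e-07. Without male mutants 1 and 3, whose SP libraries had the lowest *Csf1r* values of 12.9 and 12.9 CPM, it was 0.57 ± 0.05 (edgeR adjusted p = 1.2e-07).

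*Cx3cr1*, the receptor for the neuronal chemokine fractalkine, ranged from 9.99 to 14.8 CPM in SP (median 13.1) and from 12.5 to 16.1 CPM in DMH (median 14.8). The regions overlapped, and DMH was higher in 8 of 11 embryos. The log2 fold change of 0.16 ± 0.06 was the smallest of the 10 (edgeR adjusted p = 0.0154), and with male mutants 1 and 3 left out it was 0.11 ± 0.05 (adjusted p = 0.0624).

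*P2ry12*, the ADP receptor that directs microglial processes to injury, lay between 4.47 and 6.90 CPM in SP (median 5.38) and between 4.91 and 7.20 CPM in DMH (median 6.27). It was higher in DMH in 9 of 11 embryos, with a log2 fold change of 0.20 ± 0.08 (edgeR adjusted p = 0.0317). *Trem2*, a lipid-sensing receptor that signals through the adaptor TYROBP, lay between 0.796 and 1.33 CPM in SP (median 1.12) and between 1.05 and 1.90 CPM in DMH (median 1.26). It was higher in DMH in 9 of 11 embryos, with a log2 fold change of 0.31 ± 0.13 (edgeR adjusted p = 0.0440), and the ranges of both receptors overlapped between regions.

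The C1q genes, which encode the 3 chains of 1 molecule, differed by like amounts. *C1qa* ranged from 3.61 to 6.52 CPM in SP (median 5.58) and from 5.83 to 8.95 CPM in DMH (median 6.88). *C1qb* ranged from 4.91 to 7.88 CPM in SP (median 6.66) and from 7.57 to 10.6 CPM in DMH (median 8.66). *C1qc* ranged from 4.08 to 7.96 CPM in SP (median 7.23) and from 7.95 to 11.9 CPM in DMH (median 9.001). *C1qb* and *C1qc* were higher in DMH in 11 of 11 embryos and *C1qa* in 10 of 11, where 24.8% of all genes tested were higher in DMH in every embryo. The log2 fold changes were 0.38 ± 0.09 for *C1qa*, 0.37 ± 0.07 for *C1qb* and 0.43 ± 0.09 for *C1qc* (edgeR adjusted p = 0.00202, 0.000247 and 0.000279). Their 95% intervals overlapped, from 0.18 to 0.58, from 0.22 to 0.52 and from 0.25 to 0.62.

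*Mrc1* ranged from 5.61 to 22.1 CPM in SP (median 18.9) and from 20.4 to 32.9 CPM in DMH (median 28.2). A single SP library, male mutant 3 at 5.61 CPM, lay far below the rest, which began at 15.7 CPM, and DMH exceeded SP in 11 of 11 embryos, by 1.14-fold to 5.02-fold. The log2 fold change was 0.63 ± 0.14 (edgeR adjusted p = 0.00103). Without male mutant 3 it was 0.49 ± 0.06 (edgeR adjusted p = 5.9e-06), just under the fold threshold, which ended the call and left 1 member called. Without male mutants 1 and 3 it was 0.51 ± 0.06 (edgeR adjusted p = 2.7e-06) and was called.

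*Aif1*, which encodes the actin-binding protein IBA1 used to stain microglia, lay between 0.664 and 1.09 CPM in SP (median 0.853) and between 0.655 and 1.51 CPM in DMH (median 0.995). Its log2 fold change of 0.22 ± 0.13 had an edgeR adjusted p of 0.134. *Tmem119*, a membrane protein of mature microglia that osteoblasts also make, lay between 1.15 and 3.37 CPM in SP (median 2.67) and between 2.47 and 4.48 CPM in DMH (median 3.19). Its log2 fold change was 0.36 ± 0.14 (edgeR adjusted p = 0.0285) and 0.19 ± 0.11 without male mutants 1 and 3 (adjusted p = 0.125). With female mutant 3 included it was 0.53 ± 0.19 and was called (edgeR adjusted p = 0.0213).

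With the fold threshold set aside, 10 of 10 members were higher in DMH at an FDR under 0.2, where 41.6% of all genes were, and 9 of 10 at an FDR under 0.05, where 36.7% were. DESeq2 gave 8 of 10 at an adjusted p under 0.05 and called the same number past both thresholds, 2. All 10 log2 fold changes stayed above 0 in each of the 21 alternatives. The stricter FDR and the absent fold threshold, counted among these, reuse the estimates of the main fit. The shares of all genes given here belong to the edgeR fit over 11 embryos, not to DESeq2 or to the fit that follows. With the 4 embryos whose DMH held few caudal *Hox* transcripts left out, *Csf1r* was higher in the DMH of the other 7 by 0.67 ± 0.09 and *Mrc1* by 0.66 ± 0.20 on the log2 scale (edgeR adjusted p = 4.6e-05 and 0.0136), and 2 of 10 members were called. In those 7 embryos *Cx3cr1*, *P2ry12*, *Trem2* and *Aif1* had adjusted p values of 0.237 to 0.481.

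**Figure D2:**
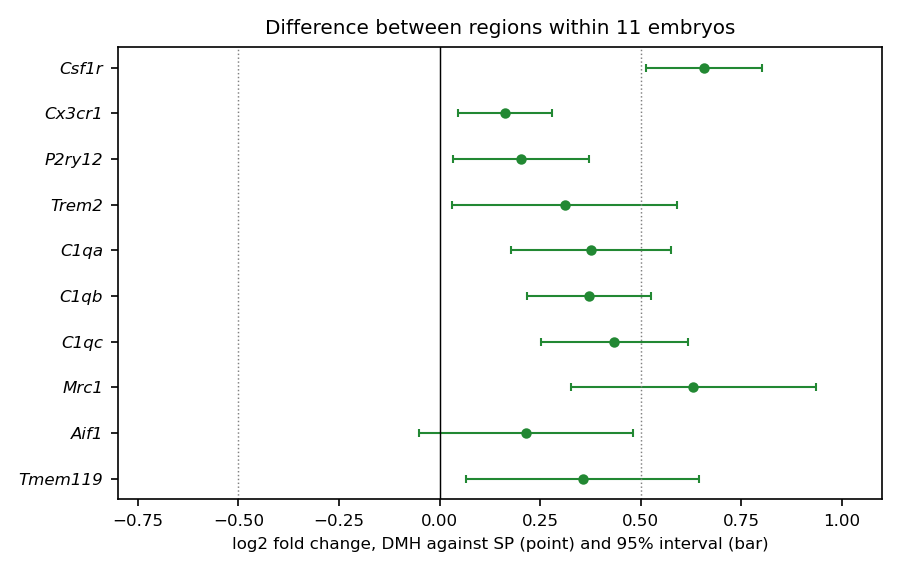
Log2 fold change of DMH against SP for the 10 members over 11 embryos, from a fit with the embryo as a block; points are estimates, bars 95% intervals, the solid line is 0 and dotted lines mark a log2 fold change of 0.5. All points lie above 0, from 0.16 for *Cx3cr1* to 0.66 for *Csf1r*.

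The other genes of these cells were read from lists. In the same fit 21.8% of all 17465 genes tested were called higher in DMH, and 36.6% in either direction. Among border-associated macrophage genes 8 of 10 tested were called higher in DMH and 0 lower, with a median log2 fold change of 0.67. They included *F13a1*, a coagulation factor chain of these macrophages (0.69 ± 0.16), the scavenger receptor genes *Stab1* (0.66 ± 0.13) and *Cd163* (1.44 ± 0.20), the endocytic adaptor *Dab2* (0.54 ± 0.16) and the platelet factor gene *Pf4* (0.66 ± 0.12). The other 3 were *Ms4a7* (0.87 ± 0.21) and the lectin genes *Clec10a* (1.23 ± 0.32) and *Siglec1* (1.09 ± 0.22). *Lyve1*, the hyaluronan receptor, was not called (0.14 ± 0.16). The summed list ranged from 32.7 to 113 CPM in SP and from 116 to 162 CPM in DMH, and without male mutant 3 the SP range was 84.2 to 113 CPM and 7 of 10 genes were called. Without male mutants 1 and 3 it was 6 of 10.

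Among 11 further microglia genes 3 were called higher in DMH, where 21.8% of all genes tested were, and 1 lower. The higher ones were *Hpgds* (0.75 ± 0.09), *Crybb1* (0.80 ± 0.18) and *Selplg* (0.59 ± 0.16). The lower one was *Sall1* (-1.63 ± 0.05), a microglial transcription factor that neural progenitors also express, at a median of 157 CPM in SP and 49.4 CPM in DMH. *Fcrls* had a log2 fold change of 0.32 ± 0.07, below the fold threshold, and *Olfml3* 0.03 ± 0.06. The list's median was 0.16, beside 0.01 over all genes.

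Among 18 genes shared by macrophages and other leukocytes 6 were called higher and 0 lower, with a median of 0.34. Of all genes tested 21.8% were called higher. *Runx1* (1.61 ± 0.17), a blood factor also made by some hindbrain neurons, led, followed by *Itgam* (0.76 ± 0.22), *Lyz2* (0.65 ± 0.14), *Fcgr3* (0.62 ± 0.11), *Cd53* (0.53 ± 0.12) and *Adgre1* (0.52 ± 0.10). *Spi1* (0.20 ± 0.10), *Ikzf1* (-0.20 ± 0.09), *Laptm5* (0.30 ± 0.05) and *Ctss* (0.37 ± 0.06) were not called. Without male mutants 1 and 3, 3 of the 18 were called.

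Of 8 listed ligand genes, 4 were called higher in DMH. On this list *Csf1*, *Il34*, *Cx3cl1* and *Apoe* encode ligands of members, and the other genes do not. *Cx3cl1*, which encodes fractalkine, was higher in DMH by a log2 fold change of 1.03 ± 0.09, and *Il34*, a ligand of CSF1R, by 1.00 ± 0.15, while the other ligand gene *Csf1* had -0.14 ± 0.05 and was not called. *Cd200*, a neuronal signal that restrains myeloid cells (1.12 ± 0.04), and *Apoe*, a TREM2 ligand (0.80 ± 0.10), were the others called. *Tgfb2* and *Cxcl12* were not, with log2 fold changes of 0.03 and -0.18. Of the TREM2 signalling genes 0 of 10 were called, with *Tyrobp*, the adaptor, at 0.38 ± 0.08, the kinase genes *Syk* at 0.20 ± 0.07 and *Lyn* at 0.23 ± 0.05, and *Grb2* and *Cbl*, which most cells express, at 0.15 ± 0.04 and -0.09 ± 0.04. DESeq2 called 0 of 10 as well. With the fold threshold set aside, 4 of these 10 were higher and 1 lower at an adjusted p under 0.05 in edgeR, and 5 had an unadjusted p under 0.05.

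Of 11 other complement genes tested, 7 were called higher in DMH and 0 lower. The largest was *C3* (1.97 ± 0.13), the central component, at a median of 0.420 CPM in SP and 1.51 CPM in DMH, and *Cd55* (1.39 ± 0.12), *Cd59a* (1.101 ± 0.105) and *Csmd1* (0.60 ± 0.11), which restrain complement, were among them. So were *C1s1* (1.04 ± 0.20), which encodes a protease of the C1 complex, and *C5ar1* (0.71 ± 0.17), a receptor of C5a. *Serping1*, the C1 inhibitor, had 0.28 ± 0.05 and was not called. Of 6 purinergic receptor genes *P2rx7* (1.54 ± 0.10) and *P2rx4* (0.95 ± 0.06), which encode ATP-gated channels, were called, whereas *P2ry12* and *Gpr34* (-0.13 ± 0.15), a lysophospholipid receptor of microglia, were not. Genes linked with the microglia of developing axon tracts went both ways, with *Igf1* (1.06 ± 0.16) and *Apoe* called higher, and *Lpl* (-1.74 ± 0.07) and *Gpnmb* (-1.26 ± 0.29) called lower. The abundant genes of that list, *Fabp5*, *Ctsb* and *Cd63*, are made by many cells and were not called (-0.04, 0.18 and 0.33).

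Genes of neighbouring tissue were measured beside these. Meningeal genes were called higher in DMH in 5 of 10 cases and lower in 0 (median 0.53), and they summed to between 155 and 719 CPM in SP and between 737 and 1241 CPM in DMH over the 22 libraries. The called ones were the collagen genes *Col1a1* (1.08 ± 0.21), *Col1a2* (1.27 ± 0.21) and *Col3a1* (0.81 ± 0.21) and the transcription factor genes *Foxd1* (0.68 ± 0.13) and *Twist1* (0.60 ± 0.14). Choroid plexus genes were called higher in 5 of 9 cases (median 0.60), of which *Otx2* (2.35 ± 0.13) is also a midbrain gene and the others were *Kl* (1.88 ± 0.17), *Prlr* (1.69 ± 0.19), *Aqp1* (0.73 ± 0.39) and *Sostdc1* (0.60 ± 0.30), while *Ttr*, the most specific of them, had 0.37 ± 0.45. Of the endothelial genes 0 of 10 were called by edgeR or DESeq2 (median 0.20), with 8 at an unadjusted p under 0.05 in edgeR, and of the red cell genes 0 of 10 (median 0.19), with 3. The neutrophil genes *S100a9* (0.59 ± 0.34) and *Ngp* (0.95 ± 0.50) were 2 of 5 monocyte and neutrophil genes called. No meningeal or choroid plexus gene was at 0 in any library. The part of the meninges and the choroid plexus in the values of *Mrc1* and the other members was not tested.

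The second comparison asked whether the loss of *Tfap2b* changed these genes. No member was called in any of the 6 genotype comparisons. In SP of both sexes 0 of 10 members passed the thresholds, against 0% of 16409 genes, and in DMH 0 of 10, against 0.0478% of 16744 genes. At an unadjusted p under 0.05 edgeR gave 0 of 10 in SP (4.84% of all genes) and 0 of 10 in DMH (15.2%), and DESeq2 called 0 of 10 in both. The separate sexes gave 0 of 10 in female SP (0.0181% of genes called), female DMH (0.00596%), male SP (0%) and male DMH (0.0236%), and DESeq2 called 0 of 10 in each. At an unadjusted p under 0.05 edgeR gave 2 of 10 in female SP (2.58% of all genes), 0 in female DMH (8.9%), 0 in male SP (3.65%) and 0 in male DMH (2.89%). *Tfap2b* itself had a log2 fold change of -2.85 ± 0.11 in DMH in the same fit. Replicates are separate embryos.

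In DMH the estimates lay close to 0, with 7 of 10 above and 3 below it, where 50.5% of genes were below. This split rested on single embryos: 9 of 10 were above 0 without female mutant 1 (median 0.09) and 2 of 10 without female mutant 2 (median -0.06). *Csf1r* had 26.3 to 31.1 CPM in controls (median 28.5) and 24.5 to 30.0 CPM in the 5 mutants tested (median 26.8), overlapping ranges, with a log2 fold change of -0.07 and a 95% interval of -0.21 to 0.07. *Mrc1* had 20.4 to 32.9 CPM in controls and 23.2 to 31.6 CPM in mutants, with -0.03 and an interval of -0.28 to 0.23. The C1q genes had 0.05 (*C1qa*), 0.03 (*C1qb*) and 0.01 (*C1qc*), with intervals that stayed within -0.20 to 0.29. *Cx3cr1* (0.03, interval -0.13 to 0.20), *P2ry12* (0.09, -0.13 to 0.30) and *Tmem119* (-0.02, -0.33 to 0.29) also covered 0, and the least precise were *Trem2* (0.14, -0.25 to 0.53) and *Aif1* (0.13, -0.34 to 0.60), which rested on the fewest reads. A change of the size of the fold threshold lay outside the 95% interval of 8 of the 10 members in DMH, all but *Trem2* and *Aif1*. In the same fit 13 of 13 caudal *Hox* genes (median log2 fold change -1.81) and 8 of 9 choroid plexus genes (median -0.30) had estimates below 0. By edgeR 0 of either list were called, with 0 and 1 at an unadjusted p under 0.05, and DESeq2 called 0 and 1, the latter higher in mutants. The libraries low in caudal *Hox* transcripts were 3 of the 5 mutants tested, both female mutants among them, and 1 of the 6 controls. With the caudal *Hox* level as a covariate the median of the members was -0.01, 5 of 10 were above 0 and 0 of 10 were called. The part of the choroid plexus was not tested.

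In SP 9 of 10 estimates were below 0 and only *P2ry12* was above (0.04), with a median of -0.17 where the median of all genes was -0.01 and 52.7% of genes were below 0. *Csf1r* ranged from 16.96 to 20.4 CPM in controls (median 19.6) and from 12.9 to 20.1 CPM in mutants (median 16.8), with a log2 fold change of -0.24 ± 0.12 (edgeR adjusted p = 0.925). *C1qc* ranged from 7.11 to 7.96 CPM in controls and from 4.08 to 7.66 CPM in mutants, with -0.28 ± 0.14 (edgeR adjusted p = 0.925). *Cx3cr1* ranged from 12.9 to 14.8 CPM in controls and from 9.99 to 13.2 CPM in mutants, with -0.16 ± 0.09. The lowest values in *Csf1r*, *C1qc* and *Tmem119* were those of male mutants 1 and 3, and the ranges overlapped for all 10 members. Genes of neighbouring tissue were below 0 in the same fit, with 9 of 9 choroid plexus genes (median -0.53), 9 of 10 endothelial genes (median -0.12) and 7 of 10 meningeal genes (median -0.06). Of these 0 were called by edgeR or DESeq2, and 1, an endothelial gene, had an unadjusted p under 0.05. Their part in the members' values was not tested.

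Without these 2 embryos, a setting chosen after the data were seen, the median of the 10 SP estimates was -0.05, and 8 of 10 were below 0. Male mutant 2 was then the only male mutant. For *Csf1r*, *C1qc* and *Tmem119*, whose lowest values these embryos held, leaving them out raises the estimate by construction. *Csf1r* went to -0.05 ± 0.07, *C1qc* to -0.05 ± 0.08, *Mrc1* to 0.03 ± 0.09, and *Tmem119* to 0.12 ± 0.14. *P2ry12* changed sign (-0.03 ± 0.11), and *Cx3cr1* had -0.14 ± 0.08. *C1qb* and *Trem2* moved away from 0, from -0.16 ± 0.13 to -0.19 ± 0.10 and from -0.18 ± 0.19 to -0.32 ± 0.20. The medians of the choroid plexus, endothelial and meningeal genes were -0.13, 0.02 and 0.17 without these embryos. In this reduced fit edgeR called 0 of 10, with 0 at an unadjusted p under 0.05.

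**Figure D3:**
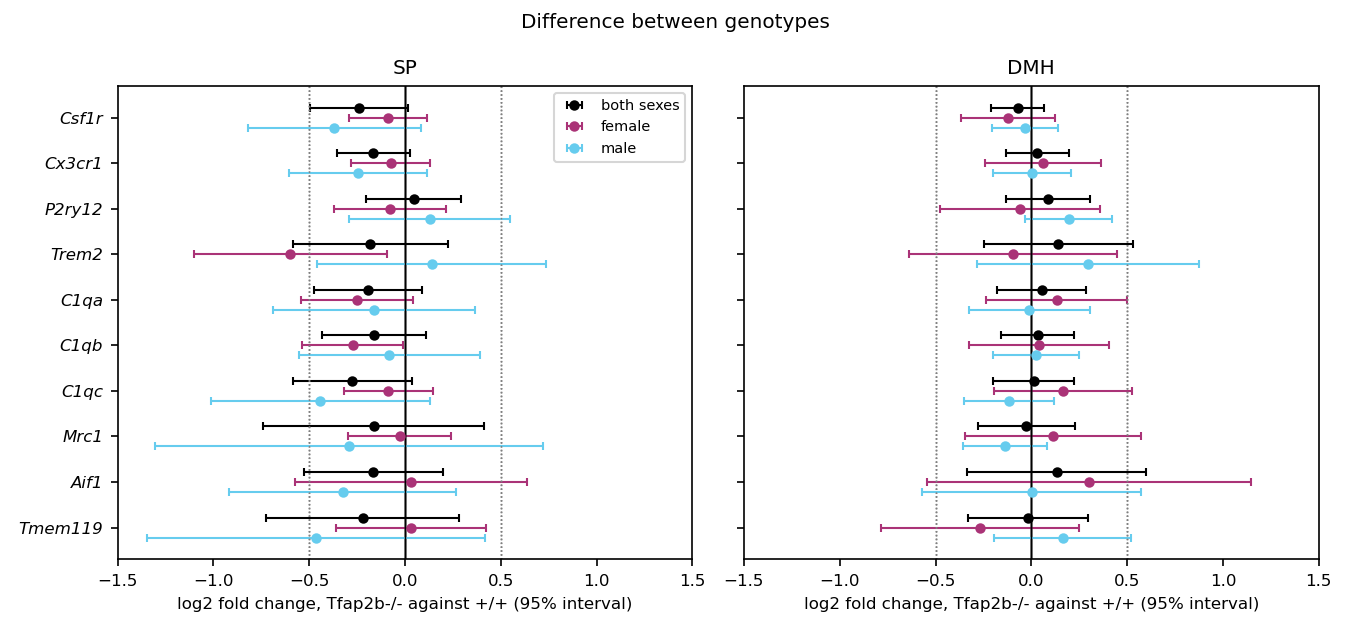
Log2 fold change of Tfap2b-/- against +/+ in SP (left) and DMH (right) for the 10 members, in both sexes together (black), females (purple) and males (light blue); points are estimates, bars 95% intervals and dotted lines a log2 fold change of 0.5. Black points lie between -0.28 and 0.04 in SP and between -0.07 and 0.14 in DMH, and no member was called.

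Within the sexes a few members had separate ranges. In female SP *Trem2* was at 1.12, 1.31 and 1.33 CPM in the 3 controls and at 0.822 and 0.828 CPM in the 2 mutants, with a log2 fold change of -0.60 ± 0.23, a 95% interval of -1.10 to -0.10 and an edgeR adjusted p of 0.99998. *C1qb* was at 6.66, 7.31 and 7.88 CPM against 5.78 and 6.27 CPM (-0.27 ± 0.12, interval -0.54 to -0.01), and *C1qc* at 7.23, 7.50 and 7.58 CPM against 6.98 and 7.05 CPM (-0.09 ± 0.10). These were 3 of 10 members with separate ranges, against 15.6% of genes. Female mutant 3, left out of the fit, had 1.22 CPM of *Trem2* in SP, within the range of the controls of both sexes. Its *C1qb* in SP was 6.34 CPM, below all 3 female controls. Its *C1qc* was 7.225 CPM, just below the lowest female control at 7.2286 CPM.

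In male SP *Cx3cr1* was at 13.3, 13.8 and 14.8 CPM in controls and at 9.99, 11.9 and 13.2 CPM in mutants (-0.25 ± 0.16), and *Aif1* at 0.915, 0.961 and 1.09 CPM against 0.697, 0.753 and 0.886 CPM (-0.33 ± 0.26). These 2 of 10 stood against 11.9% of genes with separate ranges. Male mutants 1 and 3, whose SP libraries stood apart, are in this comparison, and the 9.99 CPM of *Cx3cr1* was that of male mutant 1. In male DMH *P2ry12* was at 5.56, 5.65 and 5.99 CPM in controls and at 6.54, 6.56 and 6.98 CPM in mutants (0.19 ± 0.10, interval -0.03 to 0.42), 1 of 10 against 9.93%. In female DMH 0 of 10 were separate, against 25.9%. None of these was past the adjusted threshold.

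Whether the genotype difference was itself different between the regions was tested with an interaction term over the 11 embryos. The estimates were above 0 in 9 of 10 members, from -0.02 (*P2ry12*) to 0.33 (*Trem2*), with a median of 0.23 beside 0.00 over all genes, and 0 of 10 were called, against 0.00573% of 17465 genes. The medians of other lists in this fit were 0.38 for choroid plexus, 0.26 for red cell, 0.25 for border macrophage, 0.15 for endothelial and 0.09 for meningeal genes, and -0.08 for further microglia genes. Their part in the members' values was not tested. The smallest p was that of *Cx3cr1* (0.20 ± 0.10, edgeR adjusted p = 0.947). At an unadjusted p under 0.05 there were 0 of 10 in edgeR, against 3.57% of all genes, and DESeq2 called 0 of 10. Without male mutants 1 and 3 the median was 0.11.

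The lists around the members gave no calls for genotype. In SP and DMH of both sexes 0 of 8 and 0 of 10 border macrophage genes, 0 of 11 and 0 of 11 further microglia genes and 0 of 18 and 0 of 18 leukocyte genes passed, by edgeR and by DESeq2. At an unadjusted p under 0.05 there were 0 in the border macrophage and microglia lists and 1 in the leukocyte list in each region. The medians of the log2 fold changes in SP and DMH were -0.22 and 0.01 for border macrophages, 0.01 and -0.03 for further microglia genes and -0.04 and -0.05 for leukocyte genes. Ligands had 0 of 8 called in both regions and 1 at an unadjusted p under 0.05.

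The members did not vary as a single unit between embryos. When log2 CPM was centred within the 8 conditions, the 45 pairs of members had Pearson correlations from -0.48 to 0.82 over the 24 libraries, with a median of 0.13, and 33 were above 0. Without male mutants 1 and 3 the pairs ranged from -0.49 to 0.76, with a median of 0.24, and 33 were above 0. Against the mean of the 10, of which each is a part, *Csf1r* had the highest r (0.84) and *P2ry12* the lowest (-0.28), and without male mutants 1 and 3 *Cx3cr1* had the highest (0.82) and *P2ry12* the lowest (-0.40). The C1q pairs lay between 0.05 and 0.72, and between 0.53 and 0.59 without male mutants 1 and 3. Libraries share embryos and normalization, so these values are descriptions.

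Border macrophage genes were set beside the members in the same way. The correlation of *Mrc1* with the mean of the 6 other border macrophage genes of at least 1 CPM was 0.98 over the 24 libraries and 0.89 over the 20 without male mutants 1 and 3. *C1qb* gave 0.78 and 0.70, *Csf1r* 0.45 and 0.43, and *P2ry12* 0.08 and -0.26. Against the mean of the meningeal genes *Mrc1* had 0.76 over the 24 libraries and -0.07 over the 20, and *Tmem119* 0.57 and 0.83. Both sets hold female DMH mutant 3.

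The genes most like the mean of the members over the 24 libraries, among 14405 others of at least 1 CPM, were *Abcg5* (r = 0.88), *Ocln* (0.87), *Klhl6* (0.85), *S1pr3* (0.84), *Pdgfrb* (0.84), *Clic6* (0.84), *Nid2* (0.83), *Col4a2* (0.83), *Slc41a1* (0.81) and *Krt18* (0.81). *Pdgfrb* is the receptor of pericytes, *Nid2* and *Col4a2* encode basement membrane proteins, and *Clic6* is on the choroid plexus list. Of these, 0 of 10 were among the 10 most alike when male mutants 1 and 3 were left out. Then *Mef2d* (r = 0.90) led, and *Grn*, which encodes the lysosomal progranulin (0.81), and the leukocyte gene *Cd53* (0.77) were among them.

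In the libraries that stood apart the members did not move as 1 group. In male SP mutant 1, 5 of 10 lay below the range of the 10 SP libraries other than male mutants 1 and 3, and 1 above. *Tmem119* was at 0.42 times their median, *C1qc* at 0.55 times, *C1qa* at 0.64 times, *Csf1r* at 0.67 times and *Cx3cr1* at 0.76 times, whereas *P2ry12* was at 1.42 times and *Mrc1* and *C1qb* at 1.17 times. Over all 14414 genes of at least 1 CPM 38.0% were below and 25.8% above that range in this library. The transcripts of *P2ry12* and *Mrc1* have 38.6% and 43.4% GC and those of *Tmem119*, *C1qa* and *C1qc* 59.1%, 59.5% and 57.5%, while *C1qb*, at 57.4%, was not low. In the same library 8 of 9 choroid plexus genes were below the range, at a median of 0.47 times, and the shares of unmapped (9.98%) and multimapping fragments (7.85%) were the highest of the 24 libraries, whose medians were 6.23% and 5.39%. The part of base composition, choroid plexus and mapping in these values was not tested.

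In male SP mutant 3, 5 of 10 members were below the range, and *Tmem119*, *C1qc* and *Csf1r* were low in both libraries. *Mrc1* was at 0.30 times the median of the same 10 libraries, *Tmem119* at 0.52 times, *C1qc* at 0.65 times, *Csf1r* at 0.67 times and *C1qb* at 0.74 times, while *Cx3cr1* was at 1.00 times, *Trem2* at 0.99 times and *P2ry12* at 1.17 times. In the same library 10 of 12 border macrophage genes, 10 of 10 meningeal genes, 9 of 9 choroid plexus genes and 9 of 10 endothelial genes were below the range, against 15.6% of all genes, as were 10 of 18 leukocyte genes and 1 of 11 further microglia genes. The DMH library of this embryo held *Mrc1* at 28.2 CPM, the median of DMH. The part of the meninges and vessels in the SP value was not tested.

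In female DMH mutant 3 only *Tmem119* lay above the other DMH libraries, at 11.4 CPM against 2.47 to 4.48 CPM. All 7 muscle genes and 8 of 10 meningeal genes were above the range in this library, and *Csf1r*, *P2ry12* and *C1qc* were below it. Over all genes of at least 1 CPM 8.57% were below and 12.2% above that range. The SP library of this embryo held *Tmem119* at 2.23 CPM.

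**Figure D4:**
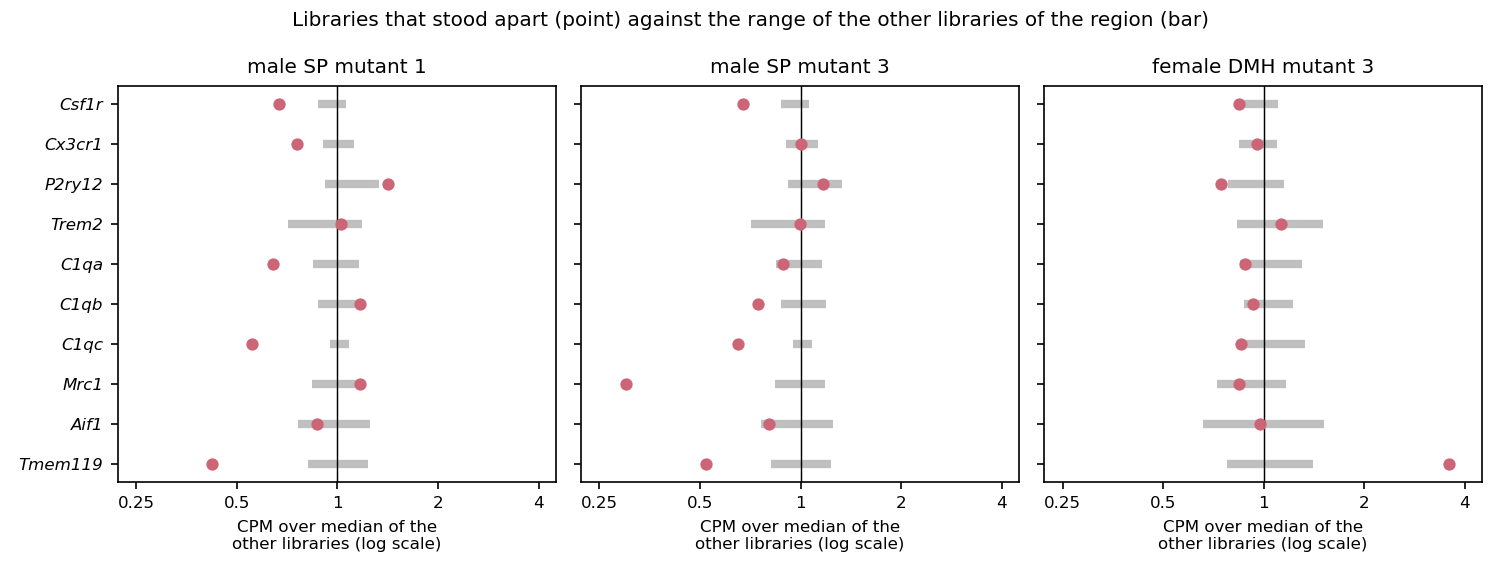
Level of each member in 3 libraries divided by the median of the other libraries of the region (log axis); points are the library named above each panel, grey bars the range of the other 10 SP or 11 DMH libraries. *Tmem119* is at 0.42 times the median in male SP mutant 1, *Mrc1* at 0.30 times in male SP mutant 3, and *Tmem119* is the only member above the bar in female DMH mutant 3.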

How the data were processed

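Total RNA from 24 samples (12 embryos, 2 regions) was sequenced as stranded polyA libraries. Per the labels, reads were trimmed with cutadapt 2.4 and aligned with STAR 2.6.1d to GRCm38.p6, and the authors deposited raw counts per gene for each library. The counts of the strand of the library kit were used here, and 1 further count column entered no test. Lines that name no gene were left out: unmapped fragments took 5.46% to 9.98% and ambiguous ones 1.097% to 1.615% of fragments. Of 54446 gene identifiers, 54409 were matched to GENCODE M21. CPM used effective library sizes (TMM).

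Genotype was tested with edgeR 4.0.16 (R 4.3.3, quasi-likelihood, robust, Benjamini-Hochberg adjustment) within each region, with sex as a term, and in each sex. Region and the interaction were fitted with the embryo as a block, which pairs both regions of an embryo. Genes with low counts were filtered by edgeR's default rule. Female mutant 3 was left out, as in the study. The procedure was tested on simulated data. DESeq2 1.42.0, limma 3.58.1, Python 3.11.15 and matplotlib 3.10.9 were also used.

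The 10 members and all lists were chosen with earlier results of these data known. Named were the members, *Tfap2b*, the 4 most abundant genes of each list, listed genes called, and the 10 genes most correlated with the members' mean among genes of at least 1 CPM. Of these, the called muscle, *Hox* and sex-linked genes and some of the abundant genes are not named in the text and enter only through their lists. *Csf1*, *Tyrobp* and *Spi1* were added as partners of members, with values seen. Alternatives covered size factors, filters, thresholds, strand, blocks and left-out embryos. The fits without male mutants 1 and 3, and the fit without the embryos low in caudal *Hox* transcripts, were added after the data were seen. Promoter sequences are from RefSeq (GRCm38.p6).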

Additional observations from a re-analysis of the deposited data

Results flagged for a closer look

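Of the 40 groups of 6 libraries examined (10 members in each region and genotype), 3 held a library that stood apart from the others by Dixon's criterion at 95%, and chance gives about 1 in 20 groups. *Tmem119* in female DMH mutant 3 was at 11.4 CPM, a value from a library left out of the tests other than the alternative that includes it, where the 5 other DMH mutants lay between 2.54 and 3.72 CPM and the controls between 2.47 and 4.48 CPM. The same library held 643 CPM of muscle genes, and their part in the *Tmem119* value was not tested. *Mrc1* in male SP mutant 3 was at 5.61 CPM, where the 5 other SP mutants lay between 16.2 and 21.9 CPM. Meningeal genes summed to 155 CPM in that library, and their part was not tested. *C1qc* in female DMH control 1 was at 11.3 CPM, where the 5 other DMH controls lay between 8.30 and 9.41 CPM.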

How the results depend on the processing

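Over 21 alternatives the members' region differences kept their sign in all 210 values. Alternatives that changed only a threshold reuse the main estimates, so their signs could not differ. In the 20 alternatives that kept the fold threshold, a stricter FDR included, *Csf1r* was called in 20 and *Mrc1* in 19. The exception was the fit without male mutant 3. Without a fold threshold (chosen after seeing the data) 14300 genes and 10 members were called for region, against 6395 and 2. Leaving out 1 embryo gave 1 to 2 members, with 1 without male mutant 3. No member was called for genotype or the interaction under any alternative by edgeR or DESeq2.

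Counts over all genes were less stable, and the cause was not tested. In SP of both sexes (0 called) there were 12 without the low-count filter, 23 by DESeq2, 1 with female mutant 3 included, 0 to 2 when 1 embryo was left out and 3 without male mutants 1 and 3. In DMH of both sexes (8 called) there were 2 at an FDR under 0.05, 5 with unstranded counts, 50 by DESeq2, 5 with female mutant 3, 1 without the sex term and 2 to 515 when 1 embryo was left out, the highest without male mutant 1. In female SP (3 called) there were 1 at an FDR under 0.05, 25 without the filter, 8 by DESeq2, 0 with female mutant 3 and 1 to 6 with 1 embryo left out, the highest without female mutant 2. In female DMH (1 called) there were 535 without the filter, 4 with unstranded counts, 77 by DESeq2 and 0 to 1117 with 1 embryo left out, the highest without female control 1. In male SP (0 called) there were 1 without the filter, 7 by DESeq2, 0 to 8 with 1 embryo left out, the highest without male control 3, and 6 without male mutants 1 and 3. In male DMH (4 called) there were 17 without the filter, 13 by DESeq2 and 3 to 16 with 1 embryo left out, the highest without male control 3. For the interaction (1 called) there were 3 by DESeq2, 1 to 3 with 1 embryo left out and 2 without male mutants 1 and 3. Of the 10 genes most like the members' mean, 0 were shared when those 2 embryos were left out.

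Controls and mutants share replicate numbers, which the labels do not tie to litters: the correlations of same-numbered libraries ranged from -0.17 to 0.59, and in 0 of 4 comparisons did every library correlate best with its own number. With the replicate number as a block there were 5 calls in DMH of both sexes, 52 in female SP, 35 in female DMH and 7 in male DMH. Without the embryo block 6344 genes were called for region. *Aif1* and *Trem2* rested on 16 to 94 counts per library, which limits their precision.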
